A study of Mus musculus with 12 samples.

Results

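The miR-29 family is a group of microRNAs (miRNAs) that share a seed, the stretch of bases 2 to 8 with which a miRNA pairs to its target mRNAs. Its 3 mouse members, mmu-miR-29a, mmu-miR-29b and mmu-miR-29c (miR-29a, miR-29b and miR-29c from here on), were measured in murine pulmonary endothelial cells with and without stimulation of the pattern recognition receptors NOD1 and NOD2. They were chosen by assay name alone and are 3 of the 375 miRNA assays on the TaqMan low-density array (TLDA), of which 335 carry mouse and 40 carry rat sequences. The array has no further assay named miR-29a, miR-29b or miR-29c.

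All groups consisted of primary lung endothelial cells of wildtype male C57BL/6N mice aged 6 to 10 weeks. Cells of 3 mice were pooled for an isolation, selected with magnetic beads against CD144 and then CD31, grown to a confluent monolayer and kept for 2 hours in 2% fetal calf serum before stimulation. The control group was left unstimulated, a second group received Tri-DAP (labelled TD), the ligand of NOD1, and the last received MDP, the ligand of NOD2, each ligand at 10 μg/mL for 6 hours. Each group was measured on 4 arrays, numbered 4, 7, 10 and 13 for control, 5, 8, 11 and 14 for Tri-DAP and 6, 9, 12 and 15 for MDP. The arrays came from 4 independent isolations, so that arrays of different groups share an isolation, but no source says which, and no pairing was used in the main comparison.

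A miRNA represses mRNAs whose 3' untranslated region pairs with its seed. The miR-29 family is best known for repressing collagens, elastin, fibrillin and other genes of the extracellular matrix, and a loss of miR-29 accompanies fibrosis of lung, heart and liver. In dendritic cells the family has been described as induced by NOD2 and as repressing the cytokine subunit IL-12p40, which makes it a natural family to look at after NOD ligands.

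The mature sequences are shown because the members differ so little that a reader can see what the assays had to tell apart. They are the 3p arms listed by RefSeq for GRCm38.p6, written 5' to 3', with the seed in capitals. The array's assay names carry no arm, and in the older naming they stand for the 3p arm.
mmu-miR-29a-3p: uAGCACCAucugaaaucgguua
mmu-miR-29b-3p: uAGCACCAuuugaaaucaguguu
mmu-miR-29c-3p: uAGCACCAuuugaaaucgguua

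The seed was identical in all 3 members, and of the 1679 mature mouse miRNA names in the RefSeq table only these 3, or 0.179%, carried it. Counted from 1 at the 5' end, miR-29a and miR-29c differed by C10U alone and shared the other 21 bases. MiR-29b, at 23 bases, is 1 base longer than the others, and its first 22 bases differed from miR-29a by C10U, G18A, U21G and A22U. From miR-29b to miR-29c the changes were A18G, G21U and U22A. MiR-29b thus has its own 3' end, which closes with AGUGUU, letters that ended 2 of the 1679 names (0.119%), the other being miR-92b-5p. Such an ending is known for directing human miR-29b to the nucleus.

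The members come from 4 hairpins in a pair of clusters. On chromosome 6, minus strand, Mir29a has its mature sequence at chr6:31062673-31062694 and Mir29b-1 at chr6:31063025-31063047, with 275 bases between the hairpins. These hairpins lie between the long noncoding RNA genes Gm40359 and Lncpint. On chromosome 1, plus strand, Mir29b-2 has its mature sequence at chr1:195037091-195037113 and Mir29c at chr1:195037600-195037621, with 426 bases between the hairpins, inside the long noncoding RNA gene A330023F24Rik and next to Cd46, which encodes a complement regulatory protein. Both miR-29b hairpins give the same mature miRNA, so that the single miR-29b assay sums both loci.

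All 3 members were detected on all 12 arrays. The threshold cycle (Ct) is the PCR cycle at which the signal crosses its threshold, so that an earlier Ct stands for more template, and a well that never crosses is recorded at 40. MiR-29a crossed the threshold at a Ct of 21.9 to 23.1, miR-29c at 22.7 to 24.0 and miR-29b at 28.1 to 30.6. On each array, between 3 and 8 of the 231 to 254 miRNAs measured had an earlier Ct than miR-29a, that is 1.23 to 3.25% of them. MiR-29c was preceded by 6 to 17 miRNAs (2.53 to 6.75%), whereas miR-29b was preceded by 64 to 166 (26.2 to 65.9%). The order miR-29a, miR-29c, miR-29b was the same on 12 of 12 arrays. Assays differ in efficiency, and these ranks describe the order of Ct values rather than of molecules.

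The endothelial label was borne out by its defining miRNAs, since miR-126-3p crossed the threshold at a median Ct of 19.6 and miR-126-5p at 21.2, both on 12 of 12 arrays. Markers of blood cells were late or missing, since miR-451 of red cells was measured on 3 arrays, the leukocyte miRNAs miR-142-3p on 9 and miR-142-5p on 2, and miR-150 and miR-223 on 12 with median Cts of 30.0 and 31.6. The 7 epithelial miRNAs had median Cts between 29.4 (miR-200b) and 34.99 (miR-375) and varied between arrays, with miR-200b from 25.6 to 33.1 where it was measured. Of the muscle miRNAs, miR-1 was measured on 8 arrays (median Ct 31.8), miR-133a on 6, miR-208 on 3 and miR-133b on 1. The neuronal miR-124 was measured on 12 (median Ct 29.8) and miR-122 of liver on 0. Most fibroblast and mural cell miRNAs were present throughout, with miR-199a-3p, miR-214, miR-143 and miR-145 on 12 of 12 arrays at median Cts of 27.0, 27.1, 27.8 and 28.7, of which miR-145 reached 23.1 and miR-214 23.3 on single arrays. The remaining miRNA of this list, miR-199a-5p, was measured on 9 arrays (median Ct 32.8). The sums of the fibroblast and mural cell miRNAs by array are given beside miR-29b.

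To compare the groups, the deposited values relative to U6, a small nuclear RNA read in 4 wells of each array, were turned in sign, which makes them log2 expression with U6 as the reference, where a difference of 1 is a 2-fold change under ideal amplification. After neither ligand was any member of the family called (0 of 3 in each comparison) at an unadjusted limma p under 0.05 from the fit across all miRNA assays. Over all assays tested, 1.69% were called after Tri-DAP (4 of 237, all lower), 1.23% after MDP (3 of 244, with 0.82% higher and 0.41% lower) and 2.9% between MDP and Tri-DAP (7 of 241, all higher after MDP), so that the family's count does not stand apart from the array. Nor was any called by the plain two-sample test on the same values. The groups overlapped for every member in every comparison, as they did for all 181 miRNAs measured on all arrays of the groups compared (0.0% without overlap). In bulk samples, fewer cells that express a miRNA and less of it per cell cannot be told apart.

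MiR-29a, the member with the earliest Ct, lay at -2.17, -2.10, -3.26 and -3.18 relative to U6 on control arrays 4, 7, 10 and 13. After Tri-DAP it was at -2.24, -1.53, -3.65 and -4.52 on arrays 5, 8, 11 and 14, and after MDP at -1.85, -2.38, -3.51 and -3.19 on arrays 6, 9, 12 and 15. On this scale Tri-DAP held both the highest array (8) and the lowest (14), and the control values lay entirely within its range. The means were -2.68 ± 0.63 (SD, n = 4) for control, -2.99 ± 1.35 for Tri-DAP and -2.73 ± 0.76 for MDP. The log2 fold change was -0.31 (SE 0.72, 95% interval -1.86 to 1.24, limma adjusted p = 0.998) after Tri-DAP, or 0.807-fold with an interval of 0.276 to 2.36. After MDP it was -0.06 (SE 0.72, interval -1.60 to 1.49, limma adjusted p = 0.9997), or 0.962-fold (0.329 to 2.81).

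MiR-29c, which differs from miR-29a by a single base, showed the same pattern from array to array. Its control values were -3.42, -2.68, -4.13 and -4.39 in the order of the array numbers. After Tri-DAP they were -3.28, -2.43, -4.35 and -5.51, and after MDP -2.56, -3.67, -4.38 and -4.12. Relative to U6, Tri-DAP arrays 8 and 14 were again the highest and the lowest of all 12. Both members share the U6 reading of an array, which was the latest of all 12 on array 8 (mean Ct 21.6). As plain Ct, array 8 instead had the latest miR-29a (23.1) and miR-29c (24.0) of all 12. The means of -3.65 ± 0.77 (SD, n = 4) for control, -3.90 ± 1.33 for Tri-DAP and -3.68 ± 0.81 for MDP gave log2 fold changes of -0.24 (SE 0.73, 95% interval -1.83 to 1.35) after Tri-DAP and -0.03 (SE 0.73, interval -1.62 to 1.56) after MDP. As folds these are 0.847 (0.282 to 2.54) and 0.981 (0.326 to 2.95).

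MiR-29b, the late member, varied most. It was at -8.53, -8.28, -10.00 and -11.17 on the control arrays, at -8.66, -7.67, -9.97 and -11.18 after Tri-DAP and at -7.90, -8.32, -10.72 and -10.57 after MDP. Relative to U6, arrays 10 to 15 all lay below arrays 4 to 9, in every group alike, as they did for miR-29a and miR-29c. As plain Ct this split did not hold, since miR-29b came at 28.5 on array 11 and at 29.3 on array 8. The means were -9.49 ± 1.35 (SD, n = 4), -9.37 ± 1.53 and -9.38 ± 1.48. The log2 fold changes were 0.12 (SE 0.96, 95% interval -1.96 to 2.21) after Tri-DAP and 0.12 (SE 0.96, interval -1.97 to 2.20) after MDP, or 1.09-fold (0.256 to 4.63) and 1.08-fold (0.255 to 4.61).

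**Figure D1:**
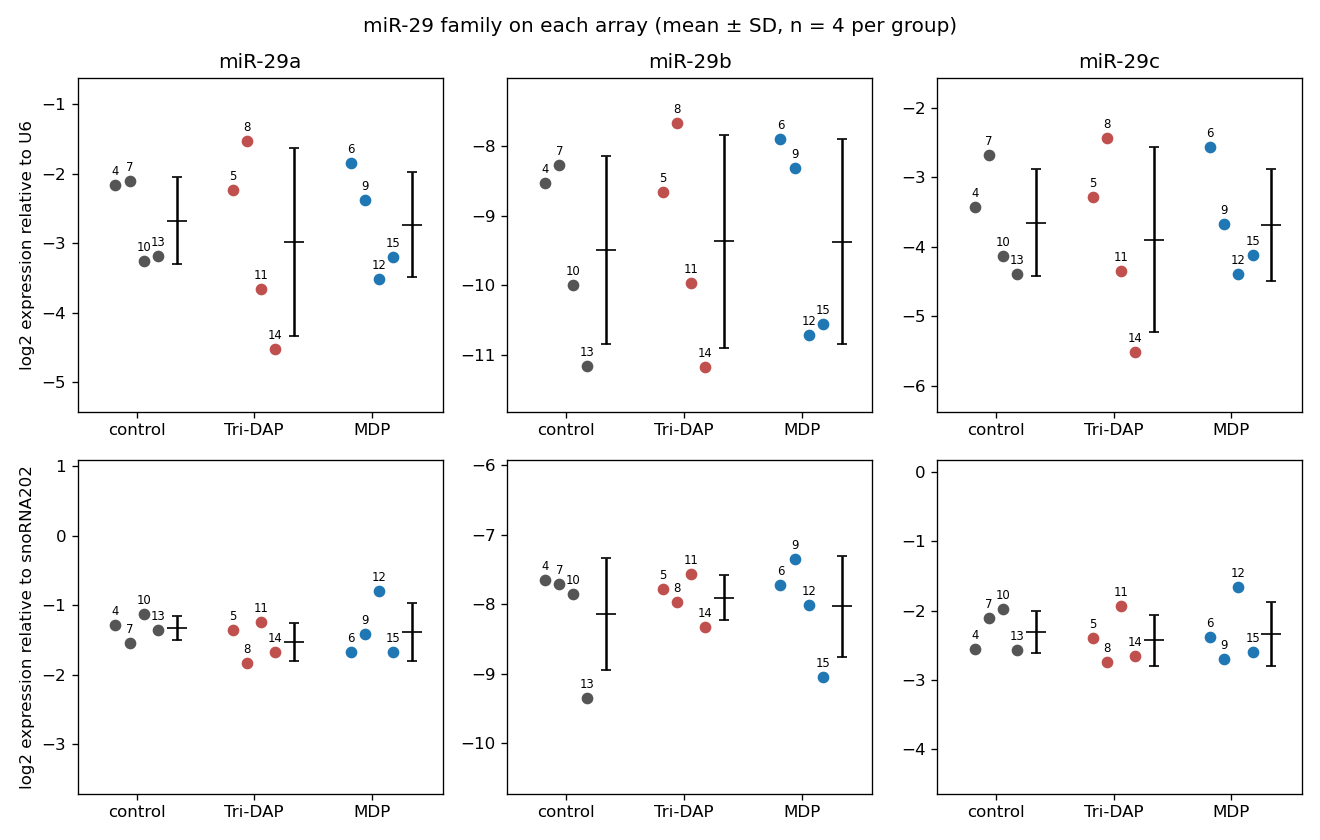
Log2 expression of miR-29a, miR-29b and miR-29c relative to U6 (top) and to snoRNA202 (bottom) on each array, with the array number above each point and the mean ± SD of the 4 arrays of a group as a bar; all panels span the same number of log2 units. Groups overlap in every panel, and for miR-29a the 4 Tri-DAP arrays run from -4.52 to -1.53 relative to U6 and from -1.83 to -1.24 relative to snoRNA202.

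Between the ligands, MDP minus Tri-DAP was 0.25 for miR-29a (95% interval -1.29 to 1.80), 0.21 for miR-29c (-1.38 to 1.80) and -0.01 for miR-29b (-2.09 to 2.08) on the log2 scale. Exact permutation tests over the arrays gave two-sided p-values of 0.714 to 1 for the 9 comparisons relative to U6, and the smallest p that 4 arrays against 4 allow is 0.029. The median log2 difference of all assays tested was -0.24 after Tri-DAP, -0.02 after MDP and 0.18 between the ligands. MiR-29c after Tri-DAP lay at this median, whereas miR-29b after Tri-DAP lay above 196 of the 237 assays and in MDP against Tri-DAP above 57 of 241. The intervals are wide, and relative to U6 without pairing they leave room for a change of more than 2-fold in either direction for each member. With arrays of consecutive numbers taken as sets, which no source states and which was chosen after seeing the data, the intervals after Tri-DAP narrowed to -1.46 to 0.84 for miR-29a, -1.46 to 0.98 for miR-29c and -0.997 to 1.24 for miR-29b, still with no member called.

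U6 itself moved between arrays, and the Ct of the members did not follow it, with a Pearson's r over the 12 arrays of 0.22 for miR-29a, -0.18 for miR-29b and 0.20 for miR-29c. The mean Ct of the 4 U6 wells ran from 18.3 on Tri-DAP array 14 to 21.6 on Tri-DAP array 8, and the SD of the 4 wells within an array from 0.11 to 2.05 cycles. The small nucleolar RNA snoRNA202, read in its own well, stayed between 20.4 and 21.4 on all 12 arrays. The Ct of miR-29a without any reference was 22.0, 22.1, 22.5 and 22.6 on the control arrays, 21.9, 23.1, 22.2 and 22.8 after Tri-DAP and 22.1, 22.4, 22.2 and 22.9 after MDP. The whole range of miR-29a over all 12 arrays was 1.22 cycles without a reference and 2.99 relative to U6.

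The reference therefore set the precision. Within groups, the SD of miR-29a was 0.97 relative to U6, 0.42 as plain Ct and 0.30 relative to snoRNA202. For miR-29c these were 1.004, 0.51 and 0.38, and for miR-29b 1.45, 0.91 and 0.65. Of the 174 miRNA assays measured on all 12 arrays, 73 had a smaller SD than miR-29a relative to U6 but only 4 relative to snoRNA202. For miR-29c the numbers were 87 and 8, and for miR-29b 138 and 45. The median SD of these assays was 1.003 relative to U6 and 0.90 relative to snoRNA202, so that the change of reference narrowed miR-29a and miR-29c far more than the typical miRNA. Single-well readings of snoRNA202 carry their own error, and this reference was chosen after the values were seen.

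Relative to snoRNA202, miR-29a was at -1.33 ± 0.17 (SD, n = 4) in control cells, -1.52 ± 0.27 after Tri-DAP and -1.39 ± 0.42 after MDP. The log2 fold change was -0.20 (SE 0.35, 95% interval -0.97 to 0.58) after Tri-DAP and -0.06 (SE 0.35, interval -0.83 to 0.71) after MDP, or 0.561-fold to 1.64-fold. For miR-29c it was -0.13 (SE 0.38, interval -0.96 to 0.71) and -0.03 (SE 0.38, interval -0.87 to 0.80). For miR-29b it was 0.24 (SE 0.51, interval -0.87 to 1.35) and 0.11 (SE 0.51, interval -0.999 to 1.22). No member was called under this reference, and for miR-29a and miR-29c the interval no longer reached a 2-fold change after either ligand. After Tri-DAP it still did under the other references. Its lower end for miR-29a was -1.08 with U6 and snoRNA202, -1.06 with the mean of the miRNAs detected on every array and -1.01 without a reference. For miR-29c it was -1.08, -1.05 and -1.04.

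**Figure D2:**
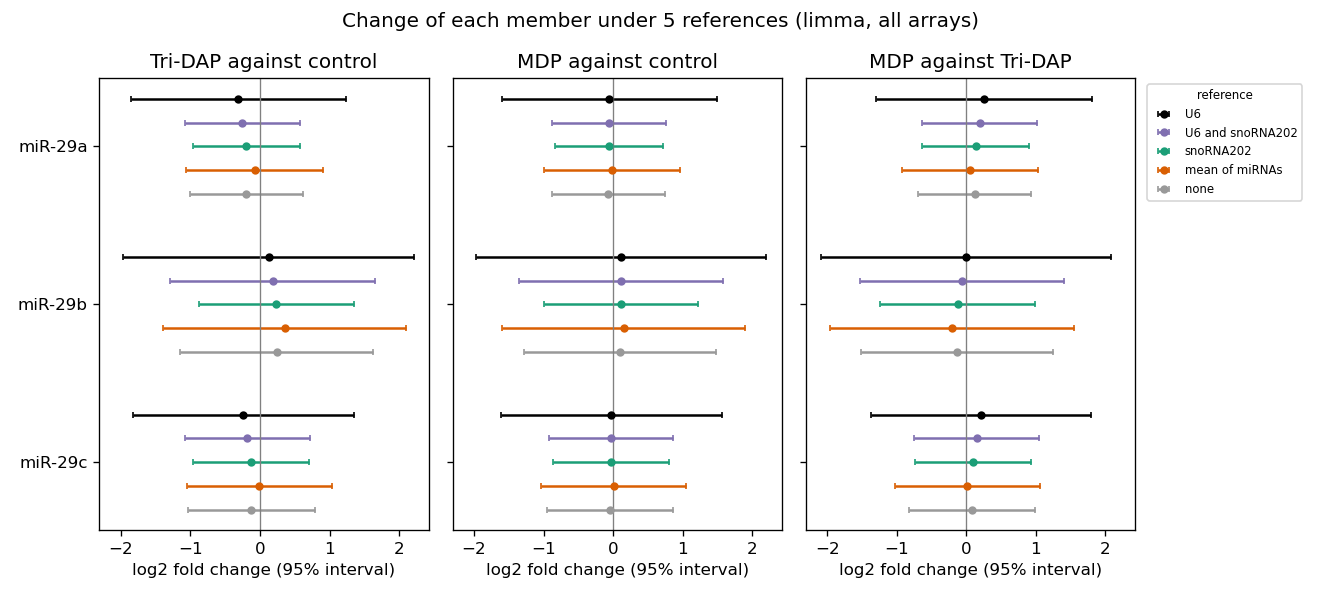
Log2 fold change of each member with its 95% interval from limma for each ligand against control and for MDP against Tri-DAP, with U6, U6 and snoRNA202, snoRNA202, the mean of 174 miRNAs, or no reference. Every interval includes 0, and those of miR-29a and miR-29c are narrowest relative to snoRNA202, with an SE of 0.35 and 0.38 against 0.72 and 0.73 relative to U6.

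Differences between members on the same array need no reference at all. MiR-29c came 0.98 ± 0.32 cycles (SD, n = 4) after miR-29a in control cells, 0.91 ± 0.15 after Tri-DAP and 0.95 ± 0.25 after MDP, and between 0.57 and 1.29 cycles later on every array. These members, which differ by a single base, thus kept nearly the same distance in all groups. Whether their assays fully tell them apart was not tested. MiR-29b came 6.82 ± 0.82 cycles after miR-29a in control cells, 6.38 ± 0.22 after Tri-DAP and 6.64 ± 0.75 after MDP. The Ct of miR-29c minus that of miR-29b, its neighbour on chromosome 1, was -5.84 ± 0.70, -5.48 ± 0.20 and -5.69 ± 0.86 cycles. None of the 9 comparisons of these differences between groups passed a two-sided exact permutation test (p = 0.40 to 0.97, Benjamini-Hochberg adjusted p of 0.964 or more). These tests used no pairing, so that the spread between isolations stays in them and in the SDs of the groups.

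**Figure D3:**
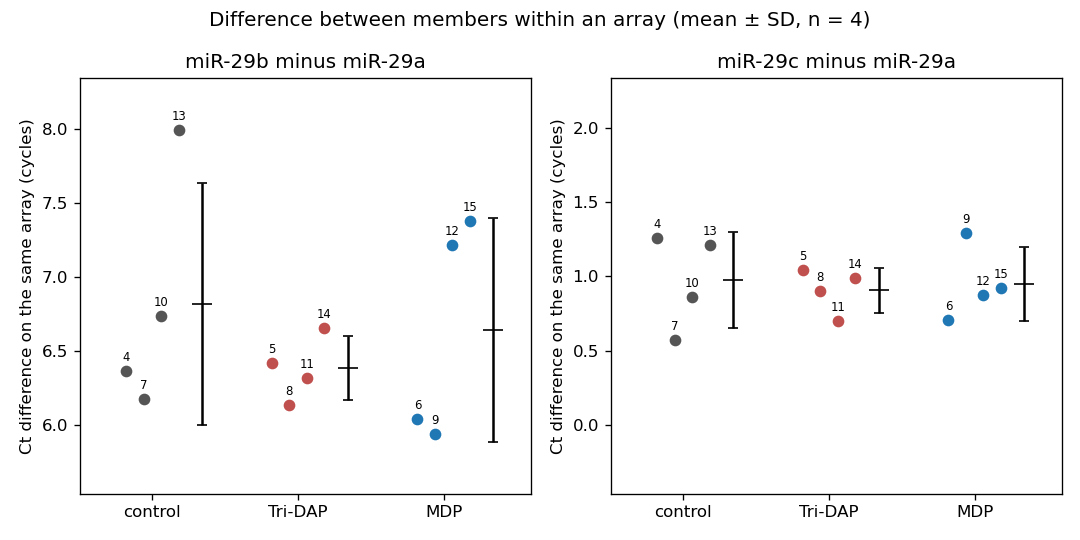
Ct of miR-29b minus Ct of miR-29a (left) and of miR-29c minus miR-29a (right) on each array, in cycles, with array numbers and the mean ± SD of the 4 arrays of a group; both panels span the same number of cycles. The miR-29c points stay between 0.57 and 1.29 cycles, while miR-29b ranges from 5.94 on MDP array 9 to 7.99 on control array 13.

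The distance of miR-29b from miR-29a was 6.36, 6.18, 6.74 and 7.99 cycles on control arrays 4, 7, 10 and 13. It was 6.42, 6.14, 6.32 and 6.66 cycles after Tri-DAP and 6.04, 5.94, 7.21 and 7.37 after MDP. The greatest distance of each group was that of control 13, Tri-DAP 14 and MDP 15, and the smallest that of control 7, Tri-DAP 8 and MDP 9. The SDs of the control and MDP groups were larger than any difference between the group means.

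The fibroblast and mural cell miRNAs (miR-143, miR-145, miR-199a-3p, miR-199a-5p and miR-214) went with that distance at the ends of each group. Their summed level relative to snoRNA202, on a log2 scale, was -5.29, -7.21, -3.47 and -0.50 on control arrays 4, 7, 10 and 13. It was -5.49, -7.12, -3.58 and -0.75 on the Tri-DAP arrays and -5.95, -6.97, -3.50 and -0.86 on the MDP arrays. In each group the array with the most of these miRNAs (control 13, Tri-DAP 14 and MDP 15) was the array with the latest miR-29b relative to miR-29a, and the array with the least had the smallest distance. On these 3 arrays miR-29b was at -9.35, -8.32 and -9.05 relative to snoRNA202, and on the other 9 between -8.00 and -7.35. Arrays of different groups share isolations, so that the groups are not independent repeats of this order. Between the ends this did not always hold: Tri-DAP array 11 had a higher sum than array 5 but a smaller distance (6.32 against 6.42 cycles). Within their groups, arrays 13, 14 and 15 also had the lowest endothelial sums (1.25, 1.06 and 0.97 relative to snoRNA202). Epithelial sums were highest on arrays 14 and 15 (-5.46 and -5.17), but control array 4 (-4.83) exceeded array 13 (-5.15). The ranges of the summed fibroblast and mural level were nearly the same in all 3 groups, and at least 4 of these 5 miRNAs were measured on each array. The part of any of these lists in the miR-29b values was not tested.

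**Figure D4:**
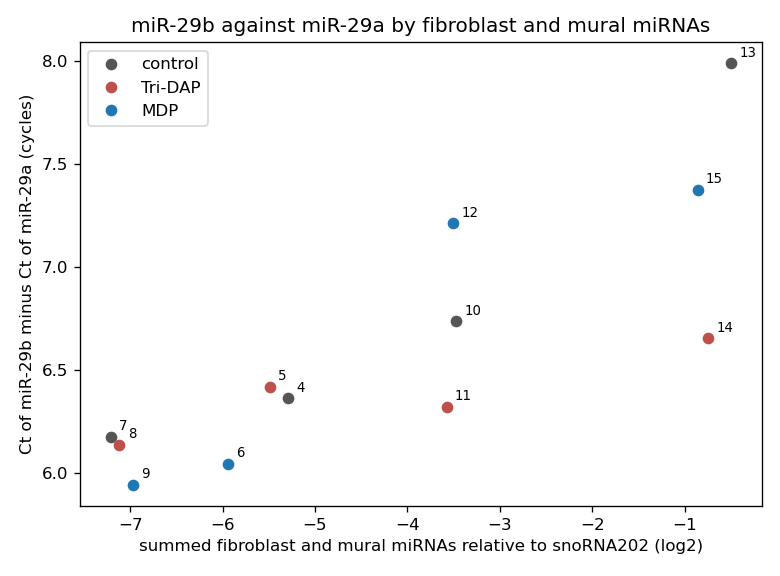
Distance of miR-29b from miR-29a (Ct difference in cycles, vertical) against the summed level of 5 fibroblast and mural cell miRNAs relative to snoRNA202 (log2, horizontal) on the 12 arrays, numbered and coloured by group. Arrays 7, 8 and 9 lie at the lower left, with sums of -7.21 to -6.97, and arrays 13, 14 and 15 at the right, with sums of -0.86 to -0.50, and each group holds points across the whole range.

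With control array 13, Tri-DAP array 14 and MDP array 15 all left out, a choice made after seeing the values, no member was called. The log2 fold changes relative to U6 were then 0.04, 0.17 and 0.05 after Tri-DAP for miR-29a, miR-29b and miR-29c, and -0.07, -0.04 and -0.13 after MDP. Tri-DAP array 14, which has the earliest U6, also turned the sign after Tri-DAP when it alone was left out: miR-29a was at 0.20 and miR-29c at 0.30. Without Tri-DAP array 8, which has the latest U6, they were at -0.80 and -0.73. With both left out, also chosen after seeing the data, they were at -0.27 and -0.16, close to the values with all arrays.

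The profiles of the members were also compared over the 12 arrays. Relative to U6, Pearson's r was 0.97 between miR-29a and miR-29c, 0.92 between miR-29a and miR-29b and 0.91 between miR-29b and miR-29c. Among the other 173 miRNAs measured on all 12 arrays, the closest to miR-29a were miR-34a, miR-27a and miR-335-5p (each r = 0.98), and the median r was 0.63. The closest to miR-29b were miR-204 (0.96), miR-27a (0.92) and miR-31 (0.92), with a median of 0.47. MiR-29c was closest to miR-27a, miR-29a and miR-335-5p (each 0.97), with a median of 0.62. All values on one array share its U6 reading and RNA input, which these correlations contain.

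Relative to the mean of the 174 miRNAs detected on every array, which takes out a shift common to all miRNAs, the median r fell to 0.09, 0.14 and 0.15 for miR-29a, miR-29b and miR-29c. Centring on these miRNAs itself brings the median r near 0. The members had r = 0.92 between miR-29a and each of the others and 0.90 between miR-29b and miR-29c on this scale. As plain Ct, r was 0.87 between miR-29a and miR-29c, 0.70 between miR-29a and miR-29b and 0.69 between miR-29b and miR-29c. With the centred values, miR-335-5p, miR-34a and miR-484 (each 0.95) were closest to miR-29a, miR-27a (0.94) and miR-204 (0.93) to miR-29b, and miR-126-5p (0.95), miR-27a (0.94) and miR-31 (0.93) to miR-29c. SnoRNA202, a small RNA of another class, had r = 0.88 with miR-29a, 0.91 with miR-29b and 0.83 with miR-29c after centring. A high r was thus not limited to miRNAs. These are descriptions over 12 arrays of 3 groups, with no test.

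**Figure D5:**
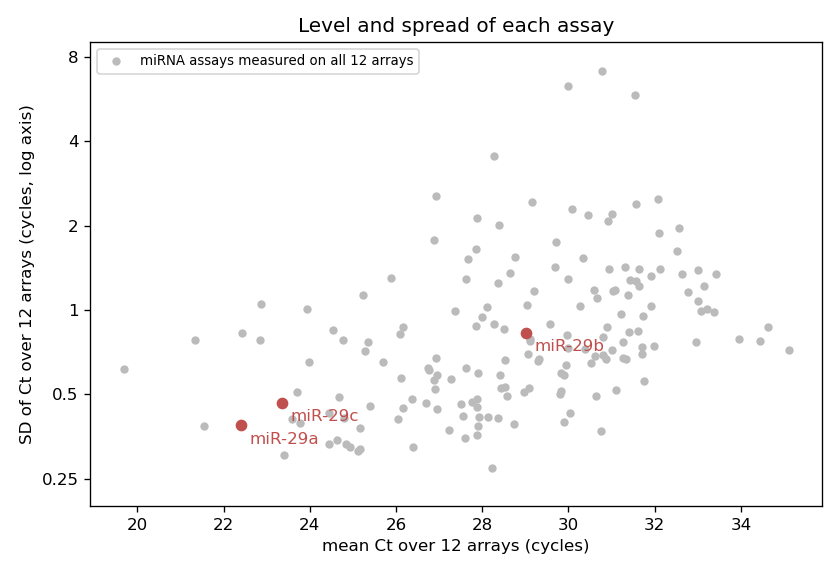
Mean Ct (horizontal, cycles) against SD of Ct (vertical, cycles, log axis) over the 12 arrays for the 174 miRNA assays measured on all of them (grey), with the members in red. MiR-29a at an SD of 0.39 and miR-29c at 0.47 lie among the early assays with little spread. MiR-29b, at an SD of 0.83, has 87 of the 174 assays at an earlier mean Ct and lies near the middle of the spread at its level.

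As plain Ct, the spread of each member was also set beside that of assays of like level. Within 1.5 cycles of the mean Ct of miR-29a there were 9 other assays, of which 2 had a smaller SD than its 0.39 cycles. For miR-29c, 8 of 17 such assays had a smaller SD, and for miR-29b 37 of 63. MiR-29a was thus among the steadier early miRNAs, while miR-29b was ordinary for its level.

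Other miRNAs with a role in the extracellular matrix or fibrosis were also without calls. Of 12 on the array, 11 could be tested against control, and 0 rose and 0 fell after Tri-DAP or MDP at an unadjusted p under 0.05 in limma. With 1.69% and 1.23% of all assays called, such a count does not set the list apart. Their median log2 fold change was -0.16 after Tri-DAP and -0.02 after MDP, beside -0.24 and -0.02 over all assays tested. MiR-21, which is raised in fibrotic tissue, was at -0.08 (SE 0.68) after Tri-DAP and 0.02 (SE 0.68) after MDP. MiR-200b, which restrains the epithelial-mesenchymal transition, was at -1.38 (SE 1.23) and -0.90 (SE 1.33), within its spread. MiR-145, a smooth muscle and fibroblast miRNA, was at 0.35 and -0.24 with an SE of 2.05.

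Of 8 miRNAs linked to NOD or other innate receptors, 7 could be tested against control, and none was called in limma after either ligand (0 of 7), beside 1.69% and 1.23% of all assays. Their median was -0.27 after Tri-DAP and -0.09 after MDP, beside -0.24 and -0.02 over all assays tested. After Tri-DAP 7 of 7 lay below 0, and after MDP 5 of 7. The largest change was that of miR-495, at -0.85 (SE 0.65) after Tri-DAP and -0.75 (SE 0.65) after MDP. MiR-146a, a brake on NF-κB signalling, was at -0.22 (SE 0.60) and -0.07 (SE 0.60). MiR-155, which is induced by inflammatory stimuli in myeloid cells and stands in both lists, was at -0.12 (SE 0.57) and 0.11 (SE 0.57). MiR-122, the liver miRNA of the list, was undetermined on all 12 arrays.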

How the data were processed

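Each of the 12 samples was run on a TLDA. The deposited Ct values (a score in cycles, 40 where the threshold was not reached) are not normalized, and 12 unnamed columns beside them were not used. The authors' normalized values are on a log2 scale, Ct minus the mean of 4 U6 wells. A deposited table of the authors' own fold changes was not used. Here the normalized values were turned in sign and wells at 40 set missing. MiRNAs with at least 2 measured values in each group compared were tested in a single fit over all arrays (limma 3.58.1, R 4.3.3, Benjamini-Hochberg adjustment), and single values by exact permutation tests (scipy 1.17.1). The 12 arrays came from 4 independent isolations, but no source says which arrays share an isolation, so that the spread between isolations stays in the error of the unpaired fit.

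The members were chosen by assay name, and the lists were chosen with earlier results of these data known. Named were the members, reference RNAs, cell type markers, the 3 profiles closest to each member, and miRNAs of the matrix and NOD lists. On simulated data for Tri-DAP against control (174 miRNAs, 50 changed by a log2 of 2), 71.3% of the changed and 3.67% of the unchanged miRNAs were called, and 95.8% of the 95% intervals held the true value. Each miRNA was drawn independently there, without the shifts that miRNAs of a real array share. These rates therefore need not hold for the real values. Alternatives were other references, treatments of late wells, filters, moderation, a plain two-sample test and left-out arrays.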

Additional observations from a re-analysis of the deposited data

How the results depend on the processing

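No member was called under any of the alternatives run, and the adjusted p of the members never fell below 0.65. Directions were not stable, and the differences are small beside their errors. With the median of the U6 wells as reference, miR-29a and miR-29c after MDP came to 0.19 and 0.22 and miR-29b in MDP against Tri-DAP to 0.35. Relative to the mean of the 174 miRNAs detected on every array, miR-29c after MDP came to 0.0066. With control 13, Tri-DAP 14 and MDP 15 left out, chosen after seeing the data, miR-29a and miR-29c turned to 0.035 and 0.053 after Tri-DAP and to -0.11 and -0.18 in MDP against Tri-DAP, and miR-29b after MDP to -0.045. Leaving out single arrays moved Tri-DAP against control from -0.80 to 0.20 (miR-29a), -0.44 to 0.73 (miR-29b) and -0.73 to 0.30 (miR-29c), MDP against control from -0.35 to 0.20, -0.44 to 0.57 and -0.40 to 0.30, and MDP against Tri-DAP from -0.26 to 0.74, -0.61 to 0.56 and -0.33 to 0.70. For the distance of miR-29b from miR-29a these ranges were -0.65 to -0.042, -0.42 to 0.22 and 0.016 to 0.49 cycles in the same order of comparisons. They were -0.20 to 0.024, -0.16 to 0.066 and -0.073 to 0.12 for miR-29c minus miR-29a, and 0.051 to 0.61, -0.20 to 0.40 and -0.57 to 0.033 for miR-29c minus miR-29b. With group medians, MDP against control was 0.0785 for miR-29b minus miR-29a and -0.10 for miR-29c minus miR-29b, and MDP against Tri-DAP was -0.0475 for miR-29c minus miR-29a. The causes of these turns were not tested. The labels give no replicate numbers shared between groups, so that no pairing could be taken from them. Taking arrays with consecutive label numbers as sets, which no source states and which was chosen after seeing the data, called no member and gave an SE of 0.52, 0.51 and 0.56 for miR-29a, miR-29b and miR-29c.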

Other observations

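The summed fibroblast and mural cell miRNAs were close on arrays with consecutive numbers, which belong to different groups. Relative to snoRNA202 the sums were -5.29, -5.49 and -5.95 (log2) on arrays 4, 5 and 6, -7.21, -7.12 and -6.97 on arrays 7, 8 and 9, -3.47, -3.58 and -3.50 on arrays 10, 11 and 12, and -0.50, -0.75 and -0.86 on arrays 13, 14 and 15. The 12 arrays came from 4 cell isolations, and no source says which arrays share an isolation. For miR-29b the values relative to snoRNA202 were -7.65, -7.78 and -7.72 on arrays 4, 5 and 6 and -9.35, -8.32 and -9.05 on arrays 13, 14 and 15.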
